A study of Mus musculus with 6 samples.

Results

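The genes described here carry out fatty acid synthesis, elongation and activation. They were chosen by symbol from a list of 39 genes that covers citrate export, lipogenesis, desaturases, elongases and acyl-CoA synthetases, of which 38 had a row among the 18046 genes listed in every library. Thrsp, the remaining gene, was not analysed here. Levels were measured by RNA sequencing in naive CD4+ T cells from spleens of C57BL/6 mice aged 3 weeks, which had been stimulated in culture through CD3 and CD28 for 3 days in medium that favours T helper 1 (Th1) cells. LPC at 20 µM was present in 3 libraries (LPC 1 to 3) and a vehicle that the labels do not name in the other 3 (vehicle 1 to 3). What LPC stands for is not written out in the labels. Nor do they tell whether the libraries of 1 group came from separate mice or cultures, and each p-value is therefore set against a spread between libraries that may be technical.

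Cells that divide need fatty acids for new membranes. In the cytosol, citrate that has left the mitochondrion is split into acetyl-CoA, acetyl-CoA carboxylase turns this into malonyl-CoA, and fatty acid synthase joins the units into palmitate, which desaturases and elongases at the endoplasmic reticulum then modify. A separate pathway inside mitochondria makes the precursor of lipoic acid, a cofactor of mitochondrial dehydrogenases. Fatty acids from any source must be joined to coenzyme A by acyl-CoA synthetases before they enter lipids or are oxidised. T cells raise cytosolic fatty acid synthesis when they are activated.

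Values are FPKM, fragments mapped to a gene scaled by its exon length and by the library's mapped total, which can be compared between genes because they are per length. Each gene was tested with limma on log2(FPKM + 1), LPC minus vehicle, and was called at a Benjamini-Hochberg adjusted p under 0.05. This scale understates the change of genes with low values. Of the 38 listed genes 31 were tested, those with an FPKM of 1 or more in at least 3 libraries. Among these 31, 3 were called higher with LPC (Fasn, Mcat and Mecr), against a background of 5.82% of all 10138 tested genes called higher. A further 5 were called lower (Slc25a1, Acss1, Acss2, Scd1 and Acsl3), against 7.91% of all tested genes. In either direction 8 of 31 (25.8%) were called, where 13.7% of all tested genes were. These 8 include Acss1, which passed the filter through vehicle libraries alone, and 7 were called among the 29 members that passed it through both groups. On the log2(FPKM + 1) scale no member was called with a change over 2-fold, as 0.197% of all tested genes were. With a pseudocount of 0.1 the log2 change of Acss1 was -1.04 (limma adjusted p = 0.00607). The median log2 change was 0.06 among tested members and -0.04 over all tested genes.

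**Figure D1:**
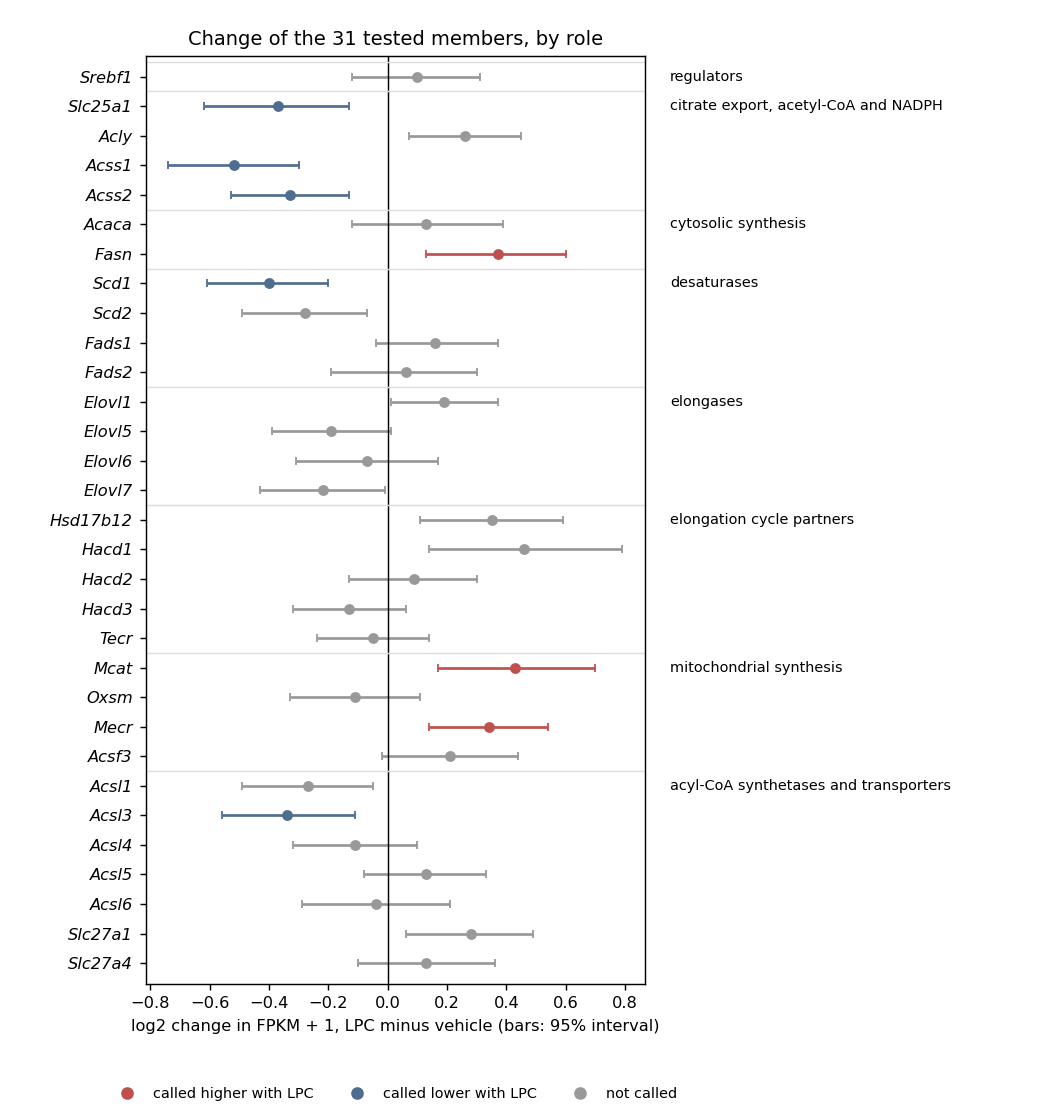
Log2 change in FPKM + 1 (LPC minus vehicle, n = 3 libraries each) of the 31 tested genes, ordered by role, with the 95% interval from limma as bars. Called genes lie within 0.52 of 0 in either direction, and genes of 1 role lie on both sides of 0 in all roles with more than 1 tested gene but cytosolic synthesis.

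The count rested on the scaling and on single libraries. Calls numbered 4 higher and 2 lower with quantile normalization, 3 and 3 with median centring, and 0 and 3 when library totals were made equal, against 3 and 5 as deposited. Over all tested genes the same 3 scalings gave 648 higher and 620 lower, 646 and 571, and 314 and 637, against 590 and 802 as deposited. Without LPC replicate 1 there were 2 higher and 3 lower members, and without LPC replicate 3 there were 3 and 3. Leaving out LPC replicate 2 gave 2 and 6. Without vehicle replicate 1 the counts were 0 and 2, without vehicle replicate 2 they were 0 and 1, and without vehicle replicate 3 they were 2 and 1. Acss1, which entered the test through the vehicle libraries alone, kept its call under the alternatives in which it was tested except the 2-fold rule. That rule was applied on the log2(FPKM + 1) scale, and no member was called under it.

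The libraries carried T cell transcripts and few from other cells. Summed FPKM of 8 T cell markers was 1265 to 1337 with LPC and 1287 to 1305 with vehicle. Of these markers Trat1 was called lower with LPC (12.97 to 19.8 FPKM, against 27.31 to 30.14 with vehicle; log2 change -0.83, limma adjusted p = 0.0019), and Cd4 was at 143.89 to 177.07 FPKM with LPC and 185.33 to 205.2 with vehicle, without overlap (limma adjusted p = 0.0875). Every listed marker of NK cells, B cells, red cells, platelets and stromal cells stayed under 1 FPKM in each library. Of the other lineage markers, Cd8b1, Cd68, Zbtb46, Ly6g and Lipe exceeded 1 FPKM. Ly6g (8.58 to 16.62 FPKM with LPC, 3.01 to 4.74 with vehicle) and Zbtb46 (1.17 to 1.5 with LPC, 2.72 to 2.87 with vehicle) moved with the groups, and the defining genes of neutrophils and dendritic cells, Elane, S100a9, Clec9a and Xcr1, were at 0 to 0.1 FPKM. The FPKM sum was 562046 to 641026 per library with LPC and 556561 to 588274 with vehicle, the highest being LPC 3. In LPC 3 the tenth of tested genes with the longest transcripts deviated by a median of -0.26 on the log2 scale, against -0.03 to 0.15 in the other libraries. The files give no read totals, so the depth behind each value is unknown. In such bulk samples fewer cells of a type and less RNA per cell cannot be told apart.

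Regions around the start sites of 6 of these genes are printed because they belong to the route to palmitate (Slc25a1, Acly, Acss2, Acaca, Fasn) and its mitochondrial counterpart (Mecr), along which calls went in both directions. Each runs from 250 bases before to 50 bases after a RefSeq start site on GRCm38.p6, 5′ to 3′ on the gene's own strand. Capitals mark matches, on either strand, to 4 motifs: TCACNCCAC, a form of the sterol regulatory element that SREBP factors bind; CACGTG, an E-box; ATTGG, the inverted CCAAT box that NF-Y binds; and GGGCGG, a GC box that Sp1 binds.
Slc25a1, chr16:17928170-17928469, minus strand: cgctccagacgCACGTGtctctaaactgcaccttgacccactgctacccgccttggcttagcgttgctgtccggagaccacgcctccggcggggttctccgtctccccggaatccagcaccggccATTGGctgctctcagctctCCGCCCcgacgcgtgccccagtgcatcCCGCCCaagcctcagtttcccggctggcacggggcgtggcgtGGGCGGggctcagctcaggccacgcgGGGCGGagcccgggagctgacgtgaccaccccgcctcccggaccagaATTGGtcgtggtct
Acly, chr11:100527951-100528250, minus strand: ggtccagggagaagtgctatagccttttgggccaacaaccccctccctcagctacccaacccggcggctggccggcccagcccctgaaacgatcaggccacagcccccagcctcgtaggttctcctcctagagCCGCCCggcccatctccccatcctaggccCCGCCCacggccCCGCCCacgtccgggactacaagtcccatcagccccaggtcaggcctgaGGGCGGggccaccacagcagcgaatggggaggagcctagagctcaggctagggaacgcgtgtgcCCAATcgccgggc
Acss2, chr2:155517793-155518092, plus strand: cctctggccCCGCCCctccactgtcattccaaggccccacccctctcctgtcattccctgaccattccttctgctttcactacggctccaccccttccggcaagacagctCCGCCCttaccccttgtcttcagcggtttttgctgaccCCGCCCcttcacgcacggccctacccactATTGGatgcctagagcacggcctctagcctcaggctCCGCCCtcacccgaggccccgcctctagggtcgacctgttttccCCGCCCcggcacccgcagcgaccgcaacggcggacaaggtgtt
Acaca, chr11:84195188-84195487, plus strand: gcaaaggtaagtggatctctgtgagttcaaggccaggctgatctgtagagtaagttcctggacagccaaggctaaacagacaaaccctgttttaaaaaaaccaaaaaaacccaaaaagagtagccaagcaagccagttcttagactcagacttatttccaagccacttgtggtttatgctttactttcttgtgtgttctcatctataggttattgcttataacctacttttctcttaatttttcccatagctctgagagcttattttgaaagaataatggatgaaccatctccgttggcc
Fasn, chr11:120824498-120824797, minus strand: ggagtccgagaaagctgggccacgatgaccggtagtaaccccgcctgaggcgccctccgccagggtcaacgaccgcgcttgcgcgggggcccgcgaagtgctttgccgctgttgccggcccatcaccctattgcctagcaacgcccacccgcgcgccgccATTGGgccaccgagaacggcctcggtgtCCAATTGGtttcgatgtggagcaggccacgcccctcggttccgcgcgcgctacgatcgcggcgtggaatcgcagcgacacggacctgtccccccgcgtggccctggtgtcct
Mecr, chr4:131843221-131843520, plus strand: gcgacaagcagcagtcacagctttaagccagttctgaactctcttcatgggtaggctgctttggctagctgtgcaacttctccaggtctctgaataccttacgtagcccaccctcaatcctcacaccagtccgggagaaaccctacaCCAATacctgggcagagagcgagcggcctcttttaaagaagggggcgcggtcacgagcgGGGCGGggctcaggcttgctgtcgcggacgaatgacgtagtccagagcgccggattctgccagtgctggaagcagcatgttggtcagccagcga

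An inverted CCAAT box occurs in 5 of the 6 windows, and the Acaca window holds none of the 4 motifs. That window lies well inside the Acaca gene (chromosome 11, 84129635 to 84401651), and the upstream end of the gene was not searched. Fasn holds 3 inverted CCAAT boxes, at -90, -62 and -59 from the start site, of which the last 2 overlap, and none of the other 3 motifs. GC boxes number 4 in Slc25a1, 4 in Acly, 5 in Acss2 and 1 in Mecr, and Slc25a1 also has an E-box at -239. Windows could be matched for 34 of the 39 genes, 46 in all, since some genes have several start sites; Scd1, Scd2, Fads1, Mcat and Elovl3 had none. The inverted CCAAT box occurred in 54.3% of member windows and 37.4% of all 32851 windows, and the GC box in 69.6% of member windows and 35.7% of all. The E-box occurred in 10.9% of member windows and 7.15% of all. The sterol regulatory element in this spelling occurred in 1 member window, at an Acsl1 start site, and in 1.24% of all windows. A match is a run of letters, not a shown binding site, and these shares were not tested.

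Srebf1 encodes SREBP-1, the transcription factor that switches on most genes of the cytosolic pathway. It was listed at 45.22, 38.19 and 36.36 FPKM in LPC 1 to 3 and at 39.58, 37.13 and 34.78 FPKM in vehicle 1 to 3. The groups overlapped, and the log2 change of 0.10 (95% interval -0.12 to 0.31, limma adjusted p = 0.541) did not pass.

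Citrate export and the supply of acetyl-CoA gave 3 called genes among 4 tested, all lower with LPC, against 7.91% of all tested genes called lower. Of these 3, Acss1 passed the filter through the vehicle libraries alone. The citrate-cleaving enzyme lay on the other side of 0. Slc25a1, the citrate carrier of the inner mitochondrial membrane (chromosome 16, 17925211 to 17928219), was at 64.48, 49.85 and 55.86 FPKM in LPC 1 to 3, against 68.24, 68.22 and 85.15 FPKM in vehicle 1 to 3. All LPC libraries lay below all vehicle libraries, by a gap smaller than the spread within either group. It fell to a mean of 56.7 ± 7.35 FPKM with LPC, against 73.9 ± 9.77 with vehicle (± SD over 3 libraries each), with a log2 change of -0.37 (SE 0.11, limma adjusted p = 0.0432). Acly, which splits citrate into acetyl-CoA and oxaloacetate in the cytosol, was at 54.23, 54.40 and 47.25 FPKM in LPC 1 to 3 and at 42.48, 43.62 and 43.44 FPKM in vehicle 1 to 3. Its groups did not overlap either, with LPC higher, but the change of 0.26 (interval 0.07 to 0.45) missed the threshold (limma adjusted p = 0.0669).

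Both tested enzymes that make acetyl-CoA from acetate were lower. Acss2, the cytosolic and nuclear form (chromosome 2, 155518043 to 155562743), was at 3.98, 3.92 and 4.31 FPKM in LPC 1 to 3, against 5.51, 5.20 and 5.43 FPKM in vehicle 1 to 3. The groups stood well apart, since the highest LPC library was below the lowest vehicle library by more than the range of either group. It averaged 4.07 ± 0.21 FPKM with LPC and 5.38 ± 0.161 with vehicle (log2 change -0.33, SE 0.09, limma adjusted p = 0.0339). Acss1, the mitochondrial form (chromosome 2, 150618111 to 150668240), was at 0.66, 0.50 and 0.45 FPKM in LPC 1 to 3, against 1.14, 1.37 and 1.09 FPKM in vehicle 1 to 3. It fell by 0.52 on the log2(FPKM + 1) scale (SE 0.10, limma adjusted p = 0.00673) and by 1.04 with a pseudocount of 0.1. Acss1 entered the test through the vehicle libraries alone, since no LPC library reached 1 FPKM, so a difference was built into its selection. Me1, the cytosolic malic enzyme that supplies NADPH, stayed at 0.09 to 0.25 FPKM with LPC and 0.07 to 0.19 with vehicle and was not tested.

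Calls in this step depended on the libraries used. Slc25a1 lost its call when LPC replicate 2 (limma adjusted p = 0.102), LPC replicate 3 (0.0594), vehicle replicate 1 (0.0798), vehicle replicate 2 (0.0548) or vehicle replicate 3 (0.157) was left out, with quantile normalization (0.0517), with median centring (0.126), with no filter on low values (0.145) and without the intensity trend (0.0522). Acss2 lost it when LPC replicate 1 (0.0941), vehicle replicate 1 (0.14), vehicle replicate 2 (0.0998) or vehicle replicate 3 (0.0897) was left out, with quantile normalization (0.08), with median centring (0.0592), with equal library totals (0.0658) and with no filter (0.0841). Acly gained a call without LPC replicate 3 (0.0201), with median centring (0.0293) and after trends with GC share and transcript length were removed (0.00415). With the replicate number as a block, a setting that called 2841 of all tested genes, Acly also passed (0.02). Within each library, ratios are free of library scaling. Acly per Slc25a1 in FPKM was 0.841, 1.09 and 0.846 in LPC 1 to 3, against 0.623, 0.639 and 0.51 in vehicle 1 to 3, and Acly per Acss2 was 13.6, 13.9 and 11.0 against 7.71, 8.39 and 8.0. These pairs were chosen after their values were seen, so no test is given.

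**Figure D2:**
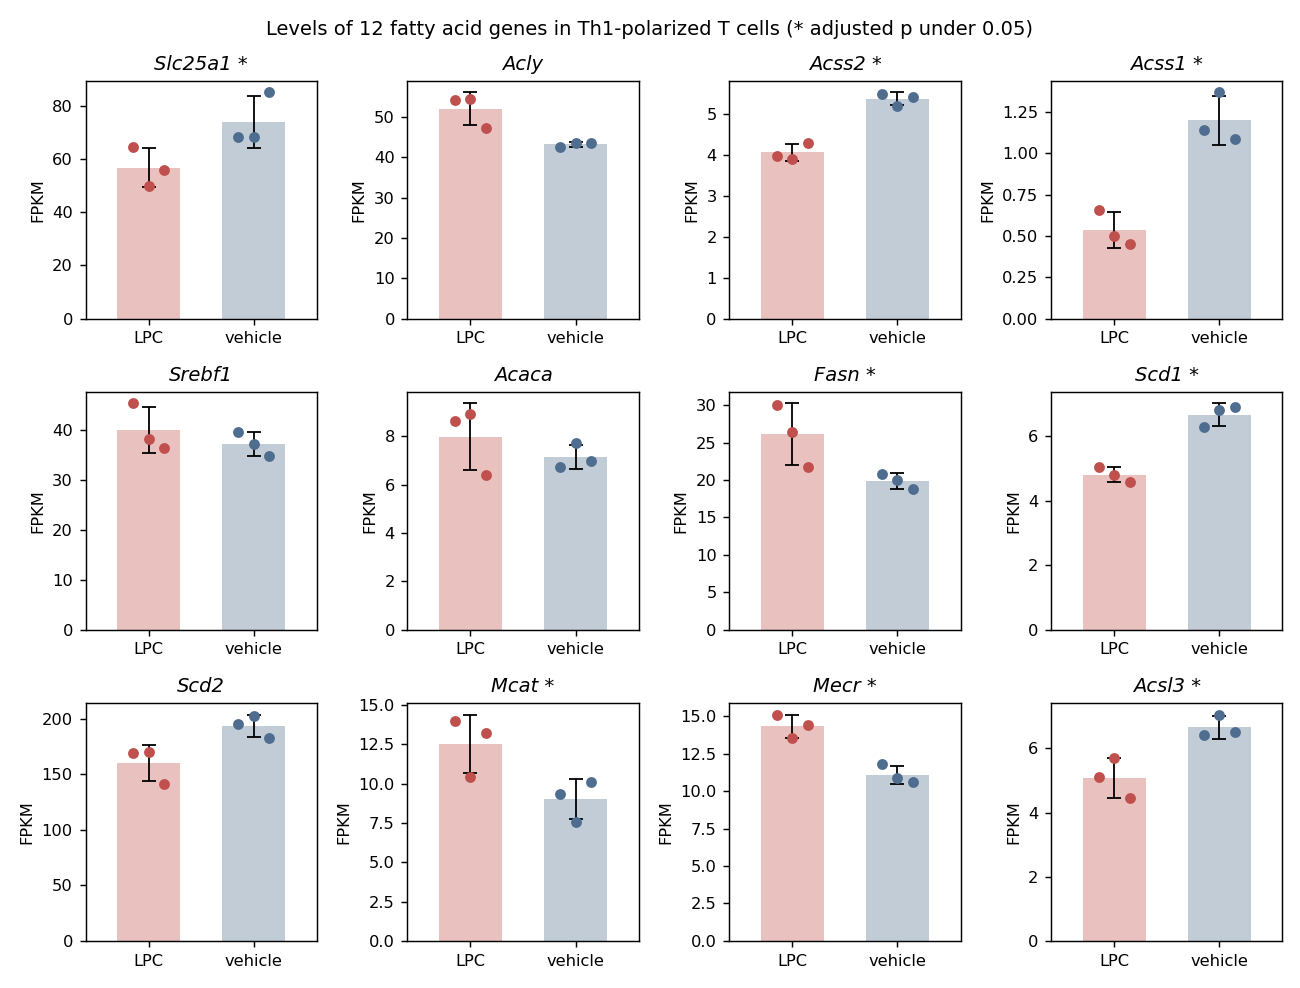
FPKM of 12 genes in each library, LPC left of vehicle, with the mean as a bar from 0 and its SD as an error bar (n = 3 each). An asterisk marks genes called at an adjusted p under 0.05. LPC and vehicle points do not overlap for Slc25a1, Acly, Acss2, Acss1, Fasn, Scd1, Scd2, Mcat, Mecr and Acsl3, and they overlap for Srebf1 and Acaca.

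In the cytosolic synthesis step Fasn rose and Acaca did not pass. Fasn, the multifunctional synthase that makes palmitate (chromosome 11, 120805958 to 120825166), was at 30.06, 26.38 and 21.80 FPKM in LPC 1 to 3 and at 20.83, 19.99 and 18.77 FPKM in vehicle 1 to 3. The LPC libraries were spread over a wide range, and LPC 3 lay just above vehicle 1. The mean was 26.1 ± 4.14 FPKM with LPC and 19.9 ± 1.04 with vehicle (log2 change 0.37, SE 0.11, limma adjusted p = 0.0431). Acaca, the cytosolic acetyl-CoA carboxylase that commits carbon to the pathway, was at 8.64, 8.91 and 6.42 FPKM in LPC 1 to 3 and at 6.75, 7.71 and 6.99 FPKM in vehicle 1 to 3. LPC 3 was the lowest of all 6 libraries and the other LPC libraries were the highest, so the change of 0.13 (interval -0.12 to 0.39) did not pass (limma adjusted p = 0.477). Acacb, the carboxylase of the outer mitochondrial surface, had at most 0.17 FPKM with LPC and 0.19 with vehicle and was not tested.

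Fasn and Acaca have the longest transcripts among the members (10050 and 9513 bases), and long transcripts were low in LPC 3 as a class. After trends with GC share and length were removed, the log2 change was 0.43 for Fasn (limma adjusted p = 0.00124) and 0.27 for Acaca, which then passed (0.0184). That removal was added after seeing the data and called 2279 of 9992 tested genes, against 1392 of 10138 without it. The Fasn call was lost by leaving out LPC replicate 1 (adjusted p = 0.157), LPC replicate 2 (0.072), vehicle replicate 1 (0.0974), vehicle replicate 2 (0.101) or vehicle replicate 3 (0.11), by equal library totals (0.138) and by no filter (0.135). Fasn per Slc25a1, a ratio also picked after its values were seen, was 0.466, 0.529 and 0.39 in LPC 1 to 3, against 0.305, 0.293 and 0.22 in vehicle 1 to 3.

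Desaturases that put the first double bond into stearate and palmitate were lower with LPC, Scd1 past the threshold and Scd2 not. Scd1 (chromosome 19, 44394450 to 44407709) was at 5.06, 4.80 and 4.58 FPKM in LPC 1 to 3, against 6.28, 6.83 and 6.92 FPKM in vehicle 1 to 3. The groups were clearly separated, with a gap wider than the range of either. Scd1 fell to 4.81 ± 0.24 FPKM with LPC, against 6.68 ± 0.346 with vehicle (log2 change -0.40, SE 0.10, limma adjusted p = 0.0155). The paralogue Scd2 lies near it on chromosome 19 (44293676 to 44306864), with Scd4 between them. Scd2 was by far the more abundant, at 169.26, 169.86 and 141.50 FPKM in LPC 1 to 3, against 195.35, 203.07 and 182.91 FPKM in vehicle 1 to 3. Its groups did not overlap, and the change of -0.28 (interval -0.49 to -0.07) did not pass (limma adjusted p = 0.076). Scd1 made up 2.75% to 3.14% of the summed FPKM of this pair with LPC and 3.11% to 3.65% with vehicle, ranges that overlap. Reads shared by the 2 paralogues were divided by estimate, so the low value of Scd1 beside that of Scd2 is less certain.

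Scd1 did not pass when vehicle replicate 2 (limma adjusted p = 0.0713) or vehicle replicate 3 (0.055) was absent, or with no filter on low values (0.0588). Scd2 passed without LPC replicate 2 (0.0498), with the replicate number as a block (0.0133) and once GC and length trends had been taken out (0.0451). That removal made both changes smaller, -0.18 against -0.28 for Scd2 and -0.30 against -0.40 for Scd1. Fads1 and Fads2, the desaturases of polyunsaturated fatty acids, averaged 10.8 ± 0.927 and 18.8 ± 2.32 FPKM with LPC and 9.50 ± 0.427 and 18.0 ± 2.35 FPKM with vehicle. Neither passed (log2 changes 0.16 and 0.06, limma adjusted p = 0.274 and 0.774), and their groups overlapped. Fads3, which lies in the same cluster on chromosome 19, had 0.27 to 0.39 FPKM with LPC and 0.17 to 0.35 with vehicle and was not tested.

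Among elongases, which add carbon units to long acyl chains, none of the 4 tested genes passed, and 2 had an unadjusted limma p under 0.05, as 30.1% of all tested genes did. Elovl1, which extends saturated and monounsaturated chains, was the most abundant, at 57.42, 51.77 and 54.17 FPKM in LPC 1 to 3 and at 46.93, 47.67 and 48.32 FPKM in vehicle 1 to 3. All LPC libraries were above all vehicle libraries (log2 change 0.19, interval 0.01 to 0.37, limma adjusted p = 0.151). Elovl5, which extends polyunsaturated chains, was at 30.50, 31.28 and 26.30 FPKM in LPC 1 to 3 and at 31.52, 33.99 and 35.06 FPKM in vehicle 1 to 3, again without overlap but in the other direction (log2 change -0.19, interval -0.39 to 0.01, limma adjusted p = 0.197). Elovl7 was low, at 0.86 to 1.00 FPKM with LPC and 1.15 to 1.40 with vehicle, and did not pass (log2 change -0.22, limma adjusted p = 0.142). Elovl6, which turns palmitate into stearate, was at 4.45 to 6.03 FPKM with LPC and 5.25 to 6.10 with vehicle (log2 change -0.07, limma adjusted p = 0.719). Elovl2, Elovl3 and Elovl4 stayed under 1 FPKM in every library, Elovl4 highest at 0.86 FPKM in LPC 2.

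Within the elongase family the shares of Elovl1, Elovl5 and Elovl7 did not overlap between the groups. In FPKM the groups of 34.5% of all tested genes did not overlap. Elovl1 made up 57.2% to 62.6% of the family's summed FPKM in the LPC libraries, against 53.0% to 54.9% in the vehicle libraries. The share of Elovl5 was 31.9%, 34.5% and 30.4% in LPC 1 to 3, against 36.9%, 37.9% and 38.4% in vehicle 1 to 3. Elovl7 had 0.93% to 1.15% with LPC and 1.3% to 1.53% with vehicle. The family's sum did overlap (86.6 to 95.74 FPKM with LPC, 85.52 to 91.21 with vehicle). Elovl1 and Elovl5 held most of that sum in every library, so a larger share of 1 largely entails a smaller share of the other. Such shares do not depend on how libraries are scaled, but paralogues can differ in transcript length and GC share. The Elovl1 transcript has 1811 bases and 52.46% GC, and that of Elovl5 has 2782 bases and 44.82% GC. Once GC and length trends had been taken out, the log2 change was 0.17 for Elovl1 and -0.12 for Elovl5, against 0.19 and -0.19. The shares were not tested, nor was the part of length and GC share in them.

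**Figure D3:**
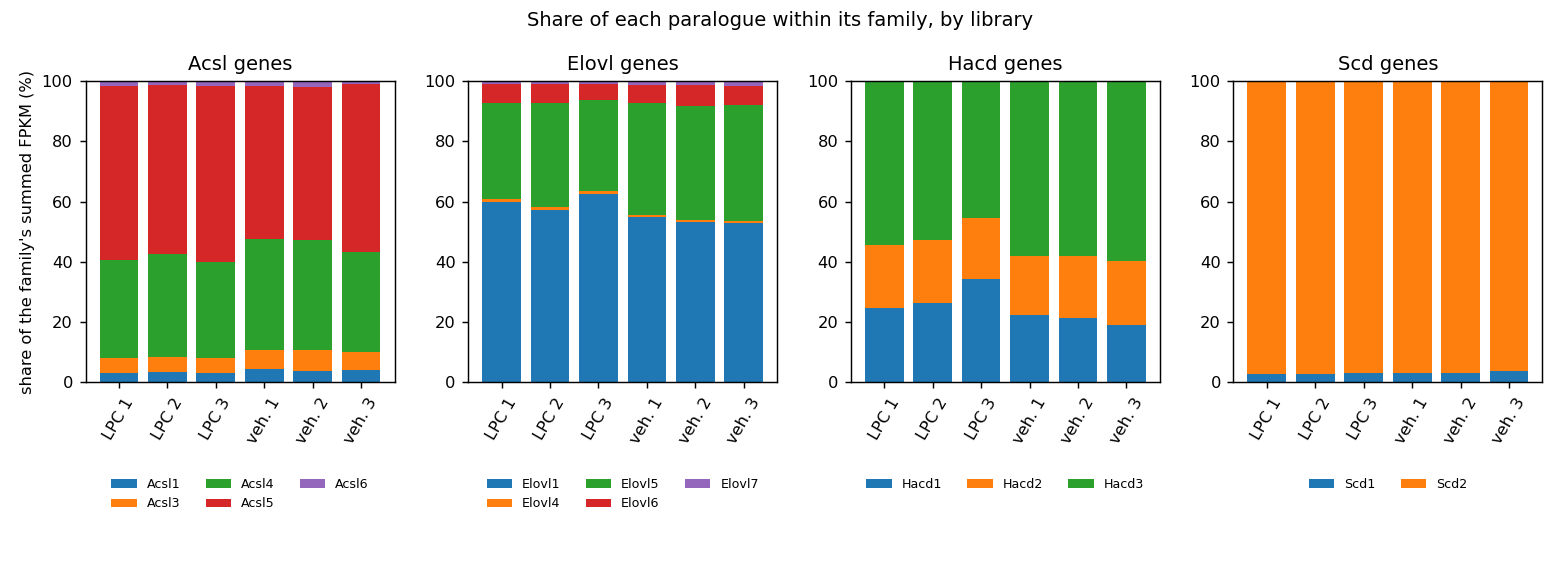
Share of each paralogue in the summed FPKM of its family (percent, y axis) in each of the 6 libraries, LPC left of vehicle, for Acsl, Elovl, Hacd and Scd genes. Paralogues that stay under 0.5% in every library are not drawn. Elovl1, Acsl5 and Hacd1 take a larger share in all LPC libraries than in any vehicle library, and the Scd pair is nearly all Scd2 throughout.

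The enzymes that complete each elongation cycle gave no call among 5 tested genes, and 2 had an unadjusted limma p under 0.05 (30.1% of all tested genes). Tecr, the enoyl reductase of the last step, was among the most abundant members, at 178.67, 161.24 and 164.40 FPKM in LPC 1 to 3 and at 176.74, 180.53 and 165.21 FPKM in vehicle 1 to 3, and did not pass (log2 change -0.05, limma adjusted p = 0.736). Hsd17b12, the ketoacyl reductase, was at 34.47, 39.25 and 45.50 FPKM in LPC 1 to 3 and at 28.61, 29.52 and 34.61 FPKM in vehicle 1 to 3. LPC 1 lay just below vehicle 3, and the change of 0.35 (interval 0.11 to 0.59) narrowly missed the threshold (limma adjusted p = 0.0519). Hacd1, a hydroxyacyl dehydratase, was at 8.84, 11.37 and 15.73 FPKM in LPC 1 to 3 and at 8.59, 8.44 and 7.62 FPKM in vehicle 1 to 3. LPC 1 barely exceeded the vehicle libraries and LPC 3 was far above both other LPC libraries (log2 change 0.46, interval 0.14 to 0.79, limma adjusted p = 0.057). Its paralogues Hacd2 and Hacd3 did not pass (log2 changes 0.09 and -0.13, limma adjusted p = 0.604 and 0.352), and Hacd4 was listed at 0 in all libraries but vehicle 1, where it had 0.05 FPKM. Hacd1 held 24.6%, 26.4% and 34.4% of the family's summed FPKM in LPC 1 to 3, against 22.2%, 21.4% and 19.2% in vehicle 1 to 3.

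Without LPC replicate 1 both Hsd17b12 (limma adjusted p = 0.0418) and Hacd1 (0.0246) passed, and Hsd17b12 also passed without vehicle replicate 3 (0.0342) and once GC and length trends had been taken out (0.0103). With the replicate number as a block both Hsd17b12 (0.00308) and Hacd1 (0.0115) passed. Without LPC replicate 3 the change of Hacd1 was 0.26 (0.141). Hacd1 has the shortest transcript of the members (993 bases) and was highest in LPC 3, where long transcripts were low. The part of transcript length in its value was not tested beyond that removal, which left its change short of the threshold (0.0557).

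In mitochondrial fatty acid synthesis 2 of 4 tested genes were called higher, against 5.82% of all tested genes. Mcat, which loads malonyl units onto the acyl carrier protein (chromosome 15, 83546797 to 83555759), was at 13.96, 10.42 and 13.18 FPKM in LPC 1 to 3 and at 9.35, 7.58 and 10.10 FPKM in vehicle 1 to 3. LPC 2 lay only slightly above vehicle 3. Mcat rose to 12.5 ± 1.86 FPKM with LPC, against 9.01 ± 1.29 with vehicle (log2 change 0.43, SE 0.12, limma adjusted p = 0.0353). Mecr, the enoyl reductase that ends each cycle (chromosome 4, 131843444 to 131867787), was at 15.08, 13.55 and 14.40 FPKM in LPC 1 to 3 and at 11.78, 10.90 and 10.64 FPKM in vehicle 1 to 3. Here the groups stood apart by more than the range of either, with 14.3 ± 0.767 FPKM under LPC and 11.1 ± 0.597 under vehicle (log2 change 0.34, SE 0.09, limma adjusted p = 0.0283).

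The remaining mitochondrial genes did not pass. Oxsm, the ketoacyl synthase that joins the units, averaged 4.34 ± 0.522 FPKM with LPC and 4.75 ± 0.0902 with vehicle (log2 change -0.11, limma adjusted p = 0.477). Acsf3, which makes malonyl-CoA inside mitochondria, was at 13.09, 11.74 and 10.14 FPKM in LPC 1 to 3 and at 10.41, 9.16 and 10.19 FPKM in vehicle 1 to 3, with LPC 3 inside the vehicle range (log2 change 0.21, limma adjusted p = 0.206). Mcat was no longer called without LPC replicate 1 (adjusted p = 0.141), LPC replicate 3 (0.0638), vehicle replicate 1 (0.0855) or vehicle replicate 2 (0.16), with median centring (0.0559), equal library totals (0.073) or no filter (0.139). Mecr was no longer called without LPC replicate 1 (0.0927), vehicle replicate 1 (0.0728), vehicle replicate 2 (0.116) or vehicle replicate 3 (0.0942), with equal library totals (0.154) or no filter (0.0612). After removal of GC and length trends both stayed called, with smaller log2 changes (0.37 against 0.43 for Mcat, 0.25 against 0.34 for Mecr).

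Of the 7 acyl-CoA synthetases and transporters, all tested, 1 was called, lower with LPC, where 7.91% of all tested genes were called lower. Acsl3, a long-chain acyl-CoA synthetase of the endoplasmic reticulum and lipid droplets (chromosome 1, 78657825 to 78707743), was at 5.10, 5.70 and 4.44 FPKM in LPC 1 to 3, against 6.40, 7.05 and 6.51 FPKM in vehicle 1 to 3. It fell to 5.08 ± 0.63 FPKM with LPC, against 6.65 ± 0.348 with vehicle, without overlap (log2 change -0.34, SE 0.10, limma adjusted p = 0.047). Acsl1 was also below vehicle in every LPC library, at 3.10, 3.80 and 3.10 FPKM in LPC 1 to 3 and 4.21, 4.10 and 4.31 FPKM in vehicle 1 to 3, and did not pass (log2 change -0.27, limma adjusted p = 0.0917). Acsl5, the most abundant of the family, was at 59.74, 62.62 and 55.44 FPKM in LPC 1 to 3 and at 49.64, 53.32 and 59.93 FPKM in vehicle 1 to 3. Its groups overlapped through vehicle 3 (log2 change 0.13, limma adjusted p = 0.385). Acsl4, which prefers arachidonate, averaged 34.1 ± 3.84 FPKM with LPC and 36.7 ± 1.38 with vehicle, and Acsl6 was at 1.33 to 1.66 FPKM with LPC and 1.22 to 1.96 with vehicle, with neither passing (limma adjusted p = 0.469 and 0.839).

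As shares of the family's summed FPKM, Acsl5 had 57.8%, 56.2% and 58.4% in LPC 1 to 3, against 50.8%, 50.9% and 55.6% in vehicle 1 to 3, while Acsl3 had 4.93%, 5.11% and 4.68% against 6.54%, 6.73% and 6.04%. Acsl1 had at most 3.41% in an LPC library, against at least 3.91% in a vehicle library. None of these 3 pairs of ranges overlapped, and they were not tested. Shares within a family are not independent of each other. Slc27a1, a fatty acid transport protein with acyl-CoA synthetase activity, had 1.11, 1.27 and 1.28 FPKM in LPC 1 to 3 and 0.88, 0.69 and 0.93 FPKM in vehicle 1 to 3. It entered the test through the LPC libraries alone, and its change of 0.28 did not pass (limma adjusted p = 0.0782) except with quantile normalization (0.0285). Slc27a4, its relative, averaged 7.98 ± 0.849 FPKM with LPC and 7.19 ± 0.774 with vehicle (log2 change 0.13, limma adjusted p = 0.425). Acsl3 dropped out of the calls without LPC replicate 1 (adjusted p = 0.111), LPC replicate 3 (0.107), vehicle replicate 1 (0.121), vehicle replicate 2 (0.188) or vehicle replicate 3 (0.0875), with quantile normalization (0.0607), equal library totals (0.0839) or no filter (0.13). After removal of GC and length trends it stayed called, with a smaller log2 change (-0.23 against -0.34). Acsl1 passed without LPC replicate 2 (0.0311) and with the replicate number as a block (0.0417).

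**Figure D4:**
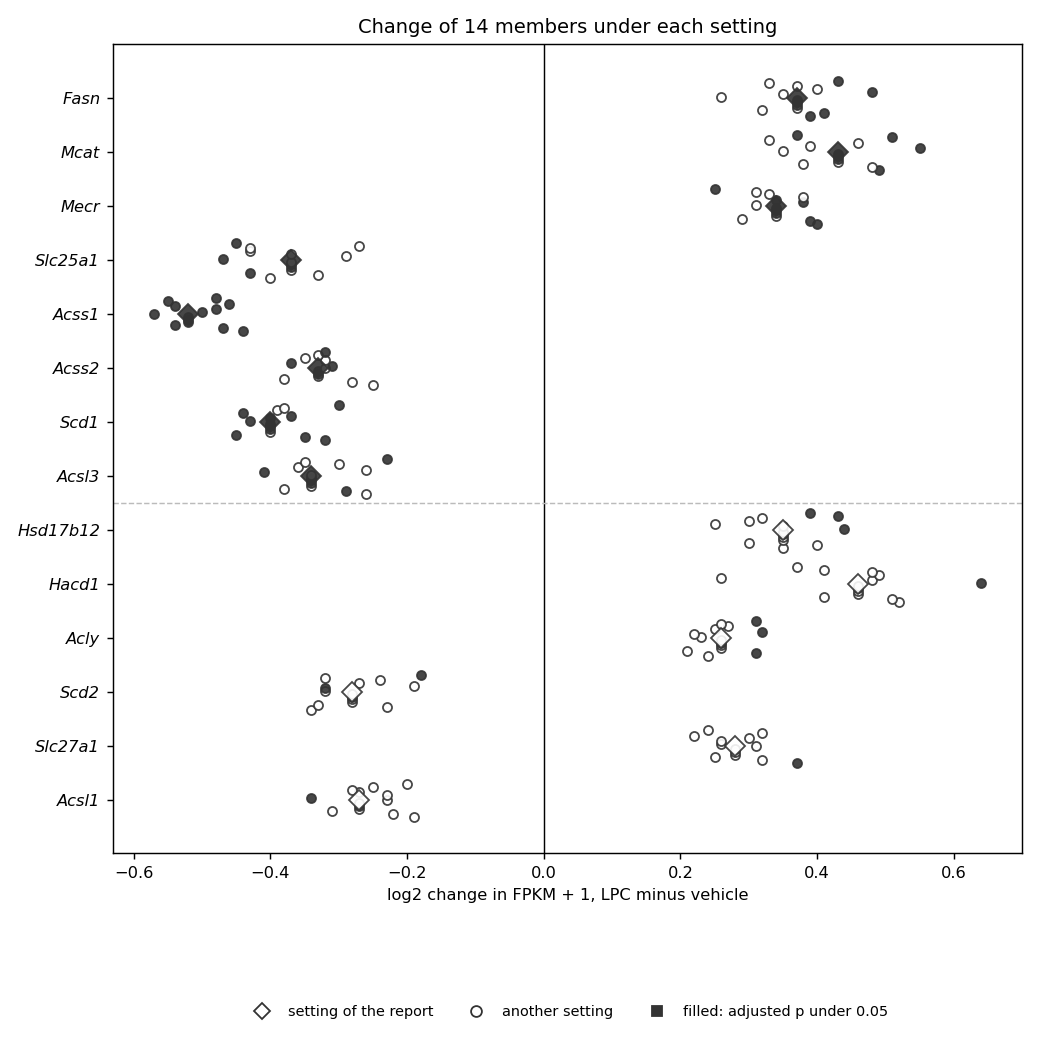
Log2 change in FPKM + 1 (LPC minus vehicle) of 14 members under the setting of the report (diamonds) and under each alternative with the same pseudocount other than the 2-fold rule (circles, spread vertically for legibility), filled where the adjusted p was under 0.05. Every point of each gene lies on 1 side of 0, and all points of Acss1 are filled, while each of the other called genes has open circles.

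Levels across the members spanned a wide range. Summed over all listed members the FPKM was 916.5, 880.9 and 837.4 in LPC 1 to 3 and 883.7, 906.0 and 897.8 in vehicle 1 to 3, so the groups overlapped. The groups were free of overlap in 16 of the 31 tested members, 7 with LPC higher and 9 with LPC lower, where the groups of 34.5% of all tested genes did not overlap (13.7% higher and 20.7% lower). Of those 16, Acss1 and Slc27a1 had passed the filter through 1 group and could not have overlapped.

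Genes around this pathway were described from 6 further lists, of which 70 of 95 genes were tested. With LPC 4 of them were called higher and 2 lower, against 5.82% and 7.91% of all tested genes, and their median log2 change was 0.02. Of 19 tested regulators, which include the SREBP escort Scap, its retention factors Insig1 and Insig2, Srebf2, the LXR gene Nr1h2 and the AMP kinase gene Prkaa1, none was called by limma, and 6 had an unadjusted p under 0.05 (1 higher, 5 lower), where 30.1% of all tested genes had one (12.2% higher and 17.9% lower). Scap was at 28.41, 26.91 and 25.19 FPKM in LPC 1 to 3 and at 23.09, 22.39 and 21.30 FPKM in vehicle 1 to 3, without overlap, and did not pass (log2 change 0.26, limma adjusted p = 0.0679). Ppard, a fatty acid receptor of the nucleus, lay closest to the threshold, at 18.46, 15.13 and 14.89 FPKM in LPC 1 to 3, against 19.97, 21.90 and 19.27 FPKM in vehicle 1 to 3 (log2 change -0.32, limma adjusted p = 0.0521). Mbtps2, a protease that releases active SREBP, Rxra, the partner of LXR, and Insig2 were also lower without overlap and did not pass (log2 changes -0.29, -0.27 and -0.23, limma adjusted p = 0.0708, 0.0774 and 0.106). These regulators were chosen for naming after their values were seen.

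Of 20 tested genes that supply citrate, acetyl-CoA and NADPH, 1 was called, higher with LPC, where 5.82% of all tested genes were called higher. Pgd, which makes NADPH in the pentose phosphate pathway, was at 55.36, 48.51 and 56.78 FPKM in LPC 1 to 3 and at 37.29, 35.36 and 35.91 FPKM in vehicle 1 to 3. It rose to 53.6 ± 4.42 FPKM with LPC, against 36.2 ± 0.994 with vehicle (log2 change 0.55, SE 0.09, limma adjusted p = 0.00229). None of the 6 tested genes of mitochondrial synthesis and lipoylation was called by limma, and 1 had an unadjusted p under 0.05, against 30.1% of all tested genes. Among 7 genes of the electron supply to desaturases and other desaturases, Cyb5r1, which encodes a cytochrome b5 reductase, was called higher, with 68.1 ± 5.49 FPKM under LPC and 54.6 ± 3.33 under vehicle (log2 change 0.31, limma adjusted p = 0.0376). Cyb5r1 lost its call without any 1 of LPC replicate 1 (0.072), LPC replicate 2 (0.0669), vehicle replicate 1 (0.0798), vehicle replicate 2 (0.142) and vehicle replicate 3 (0.124), and with quantile normalization (0.0725), equal library totals (0.156) or no filter (0.0824).

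Of the carriers that bind fatty acids or acyl-CoA, Fabp5 and Dbi were called higher with LPC, where 5.82% of all tested genes were. None of the other 4 tested, all acyl-CoA binding proteins (log2 changes -0.20 for Acbd3, -0.21 for Acbd4, -0.27 for Acbd5 and -0.05 for Acbd6), was called. Acbd3, Acbd4 and Acbd5 were lower with LPC without overlap, as 20.7% of all tested genes were. These carriers belong to a list of 9 tested genes and were not a list of their own. Fabp3 was under 1 FPKM throughout, at 0 to 0.08 FPKM with LPC and 0.15 to 0.32 with vehicle, and was not tested. Fabp5, a fatty acid binding protein of immune and skin cells, was at 43.64, 41.00 and 64.87 FPKM in LPC 1 to 3 and at 33.00, 32.35 and 33.92 FPKM in vehicle 1 to 3 (log2 change 0.55, SE 0.14, limma adjusted p = 0.0196). Dbi, the acyl-CoA binding protein, was at 44.47, 39.90 and 69.00 FPKM in LPC 1 to 3 and at 33.34, 31.07 and 39.47 FPKM in vehicle 1 to 3 (log2 change 0.52, SE 0.16, limma adjusted p = 0.0475). In both genes LPC 3 was far above the other libraries, and both have short transcripts (987 and 569 bases). After removal of GC and length trends the log2 change was 0.51 for Fabp5 and 0.34 for Dbi. Both still passed (limma adjusted p = 0.00571 and 0.0195), in a setting that called 2279 of 9992 tested genes. The part of transcript length in their values was not tested further. Without LPC replicate 3 the change of Fabp5 was 0.35 and passed (0.0178), while that of Dbi was 0.28 and did not (0.093). Dbi did not pass without LPC replicate 1 (0.0898), vehicle replicate 1 (0.136) or vehicle replicate 2 (0.111), with quantile normalization (0.0762), median centring (0.0966), no filter (0.204) or no intensity trend (0.0546). Fabp5 did not pass without vehicle replicate 1 (0.0635), with median centring (0.0505) or with no filter (0.121).

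Of the other acyl-CoA enzymes Acsf2 and Acot13 were lower. Acsf2, an acyl-CoA synthetase, had 7.20 ± 0.839 FPKM with LPC and 9.46 ± 0.148 with vehicle (log2 change -0.36, limma adjusted p = 0.0331), and it lost its call without LPC replicate 3 (0.0651), vehicle replicate 1 (0.125), vehicle replicate 2 (0.112) or vehicle replicate 3 (0.0691), with quantile normalization (0.0502), equal library totals (0.0609) or no filter (0.0913). Acot13, a thioesterase that releases fatty acids from coenzyme A, was at 12.59, 14.60 and 17.96 FPKM in LPC 1 to 3, against 22.24, 22.79 and 25.72 FPKM in vehicle 1 to 3. It fell by 0.63 on the log2 scale (SE 0.12, limma adjusted p = 0.00531), the largest change among the neighbouring genes tested, and lost its call with no filter on low values (0.0545) and under the 2-fold rule, which no neighbouring gene passed. Counted by list, 2 of 9 tested synthetase, uptake and binding genes were called higher and 1 lower, and 1 of 9 tested thioesterases was called lower. Over all tested genes 5.82% were called higher and 7.91% lower.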

How the data were processed

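RNA sequencing gave 1 library per sample, 3 with LPC and 3 with vehicle, grouped by the agent in the labels. The authors deposited FPKM computed by RSEM after alignment with Bowtie2 to GRCm38, per the labels' protocols. For tool versions and settings nothing is given in the sources used here. The values are rounded to hundredths and carry no read totals. RSEM divides reads shared by paralogues by estimate, and FPKM is relative to each library's total.

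Of the identifiers 99.3% matched RefSeq genes of GRCm38.p6, the source of coordinates and promoter windows. limma 3.58.1 in R 4.3.3 (intensity trend, group as the single term) tested log2(FPKM + 1) of the 10138 genes that reached an FPKM of 1 in at least 3 libraries, adjusted over all of them by Benjamini-Hochberg, and was checked on simulated data. Transcript length and GC share came from the longest coding transcript in GENCODE M21 (98.6% of tested genes). Alternatives were quantile normalization, median centring, equal library totals, no filter (genes at 0 throughout left out), a minimum mean FPKM of 5, no intensity trend, a block for the replicate number, 0.1 as the pseudocount, a further 2-fold rule from the labels' protocols and each library left out; removal of GC and length trends (natural splines, 4 degrees of freedom) was added after seeing the data. Values in every library are given for called members, for the most abundant member of each role and for Srebf1, Fasn, Acaca, Acly, Scd1 and Scd2, and for some others chosen after their values were seen; of each neighbouring list the called genes are named. The members and lists were chosen with earlier results of these data known.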

Additional observations from a re-analysis of the deposited data

How the results depend on the processing

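Over all tested genes 1392 were called, 464 with no filter on low values, 2279 after removal of GC and length trends, 20 with the further 2-fold rule, and 513 to 2026 with 1 library left out. Members called higher numbered 3, but 0 with equal library totals, no filter or the 2-fold rule, 6 after removal of GC and length trends, and 0 to 3 with 1 library left out. Members called lower numbered 5, but 2 with quantile normalization, 3 with median centring, equal library totals or a mean FPKM of 5 or more, 1 with no filter, 0 with the 2-fold rule, and 1 to 6 with 1 library left out. Neighbouring genes called higher numbered 4, but 1 with no filter, 0 with the 2-fold rule, 10 after removal of GC and length trends, and 1 to 6 with 1 library left out. Those called lower numbered 2, but 1 with quantile normalization or equal library totals, 0 with no filter or the 2-fold rule, 7 after removal of GC and length trends, and 1 to 5 with 1 library left out. The cause of these shifts was not tested.

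With the replicate number as a block 2841 genes, 6 higher and 7 lower members, and 8 higher and 12 lower neighbouring genes were called. Deviations of same-numbered libraries from their group means correlated at r = 0.02, 0.56 and 0.41 across genes for replicates 1, 2 and 3. Libraries with unlike numbers correlated at -0.5 (LPC 3 with vehicle 2) to 0.06 (LPC 3 with vehicle 1). Deviations cancel out within each group, so positive values at like numbers push those at unlike numbers down, and the latter are no independent reference. Whether the numbers pair the libraries is therefore not known. The labels state no pairing, and the main fit used the group alone.

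Changes of filter, the replicate block, the fit without the intensity trend and the 2-fold rule leave each log2 change as it is. Direction could turn only under the remaining alternatives. Of the 31 tested members 27 kept their direction under every alternative. The other 4, none called, turned: Acsl4 (-0.11) to 0.05 after removal of GC and length trends; Acsl6 (-0.04) to 0.03 with quantile normalization, 0.00 with median centring, 0.01 without LPC replicate 2, 0.06 without vehicle replicate 2 (-0.15 to 0.06 with 1 library left out) and 0.09 after removal of those trends; Elovl6 (-0.07) to 0.00 with quantile normalization, 0.04 without LPC replicate 3 (-0.14 to 0.04 with 1 library left out) and 0.07 after removal of those trends; Fads2 (0.06) to -0.03 without LPC replicate 3 and -0.04 without vehicle replicate 1 (-0.04 to 0.14 with 1 library left out). Unknown depth limits all low values, since no counting error can be given for them.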
